A study of Mus musculus with 12 samples.

Results

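The 92 genes described here were raised in hypothalamic RNA of the aspartame pool (ASP) above every other pool of the study. They were selected on the ASP values themselves. A gene entered when its ASP mean exceeded the highest of the other pool means by more than a 1.4-fold difference, and when each ASP array lay above all of the other 9 arrays. Of 17186 genes measured, 751 (4.37%) met the condition on the arrays and 139 (0.809%) met both. Symbols that begin with Cyp, Hox, H2- or Col were then set aside, together with 39 named symbols, chiefly of steroid synthesis, adipose tissue and the pancreas. This removed 47 of the 139 genes and left 92. Because the ASP arrays chose the genes, the ASP values are given as a description with no test, and only comparisons among the other pools were tested. The fit took its spread from all 12 arrays, the ASP arrays included.

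The hypothalamus of adult male C57Bl/6J mice was taken at 21 weeks of age. ASP mice had lifelong aspartame in the drinking water, from the fetal period onwards, at 46 mg/kg body weight. ASP+CGP mice had aspartame in the same way together with CGP 39551, a competitive antagonist of the NMDA receptor for glutamate (NMDAR), which reached them through their mothers at 5 mg/kg up to postnatal day 28. CGP mice had the antagonist alone, and CON mice had neither compound. RNA was combined over the mice of a group, and each of the 4 pools was measured on 3 Affymetrix Mouse Gene 1.0 ST arrays. The 3 arrays were therefore technical repeats, p-values measured the spread between arrays and not between mice, and an effect of treatment and any other way in which the pools differed cannot be told apart. In pooled tissue, fewer cells of a type and less RNA per cell cannot be told apart.

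Signals are RMA values, that is, background-corrected and quantile-normalized probe intensities summarised per probe set on the log2 scale, so that 1 unit is a 2-fold difference. Array medians over the 17186 genes lay between 8.56 and 8.62. Arrays of a pool correlated at r = 0.992 to 0.997 and arrays of different pools at 0.986 to 0.995, across genes, which are not independent replicates. Farthest from their pool means were the third ASP+CGP and the third CON array, whose deviations over genes had SDs of 0.0996 and 0.0903, while those of the others were 0.0490 to 0.0701. No single ASP array carried the set. The median excess of the 92 genes over the mean of the other 9 arrays was 0.79, 0.84 and 0.85 on the 3 ASP arrays.

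The hypothalamus holds neurons, glia and vessels, and it produces neuropeptides that set feeding and endocrine output. Steroid hormones are made in the adrenal cortex from cholesterol in response to adrenocorticotropic hormone, digestive enzymes are made in acinar cells of the pancreas, and triacylglycerol is stored in and released from lipid droplets of adipocytes. Named steroid, adipose and pancreas symbols had been set aside, and some genes of those tissues remained. Of the 92 genes, 21 were in lists of the adrenal gland, exocrine pancreas or adipose tissue, 36 were in any of the 23 lists counted and 56 were in none. The set is therefore named by its rule, as genes raised on the ASP arrays alone.

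Of 31 measured genes of the exocrine pancreas list, 8 belonged to the set and 8 more were among the symbols set aside. The white adipose list had 10 and 7 such genes of 47 measured, the adrenal cortex list 2 and 11 of 29, and the list of triacylglycerol synthesis, breakdown and fatty acid handling 10 and 0 of 41. None of the 29 measured genes of the list of hypothalamic neurons belonged to it, but that list does not hold Npy, a member that stood in the adrenal medulla list. None of the 17 genes of the pituitary list belonged to it either, although 10 of them (58.8%) had each ASP array above the other 9, against 4.37% of all genes. Over all 17186 genes 92 belonged to the set, so that 0 of 29 or of 17 is near the background. The log2 of the mean unlogged signal over a whole list is given as a description, since the lists hold genes that were picked for their ASP values. For the adrenal cortex list it was 10.24 to 10.27 on the ASP arrays, against 8.79 to 8.91 for ASP+CGP, 8.94 to 8.96 for CGP and 8.90 to 8.97 for CON. For the exocrine pancreas list it was 8.17 to 8.23 on the ASP arrays, against 7.04 to 7.15 for ASP+CGP, 7.11 to 7.15 for CGP and 6.998 to 7.11 for CON. The white adipose list stood at 10.43 to 10.47 on the ASP arrays, against 10.10 to 10.16 for ASP+CGP, 10.18 to 10.19 for CGP and 10.16 to 10.19 for CON. The strongest genes carry such a mean, and the median excess of a list was smaller, 0.24 for the adrenal cortex, 0.57 for the exocrine pancreas and 0.31 for white adipose tissue. Without the set and the symbols set aside, the 16 remaining adrenal cortex genes had 9.71 to 9.78 on the ASP arrays, against 9.43 to 9.56 for ASP+CGP, 9.58 to 9.61 for CGP and 9.56 to 9.63 for CON. The remaining exocrine pancreas genes (7.12 to 7.20, against 6.97 to 7.09) and white adipose genes (10.83 to 10.87, against 10.66 to 10.76) were higher in ASP too. The remaining adrenal medulla genes overlapped, with 10.816 to 10.829 in ASP and up to 10.824 in CON. The remaining brown adipose genes were not higher, at 9.45 to 9.52 in ASP, against 9.52 to 9.54 in ASP+CGP and 9.40 to 9.46 in CON. The hypothalamic neuron list was lowest in ASP, at 11.14 to 11.15 on the ASP arrays, against 11.18 to 11.19 for ASP+CGP, 11.18 to 11.19 for CGP and 11.23 to 11.31 for CON. The pituitary list had 11.69 to 11.71 on the ASP arrays, against 10.16 to 10.34 for ASP+CGP, 11.57 to 11.58 for CGP and 11.04 to 11.08 for CON. The part of RNA from other tissues in the values of the 92 genes was not tested.

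The excess of a gene, its ASP mean minus the highest of the other pool means, had a median of 0.79 over the 92 genes, which is 1.72-fold, and ran from 0.49 to 3.28. It was 1 or less for 67 genes, between 1 and 2 for 19 and over 2 for 6. The 47 symbols set aside had a higher median of 1.76, with 22 over 2 and a maximum of 5.93. The SD over the 3 ASP arrays had a median of 0.077, while the range of the other 9 arrays had a median of 0.28. In 4 genes all of the other 9 arrays were under a signal of 6, the level below which the study filtered values, and in 11 genes at least 1 was. All 92 genes are annotated as protein-coding, and they lay on 20 chromosomes.

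**Figure D1:**
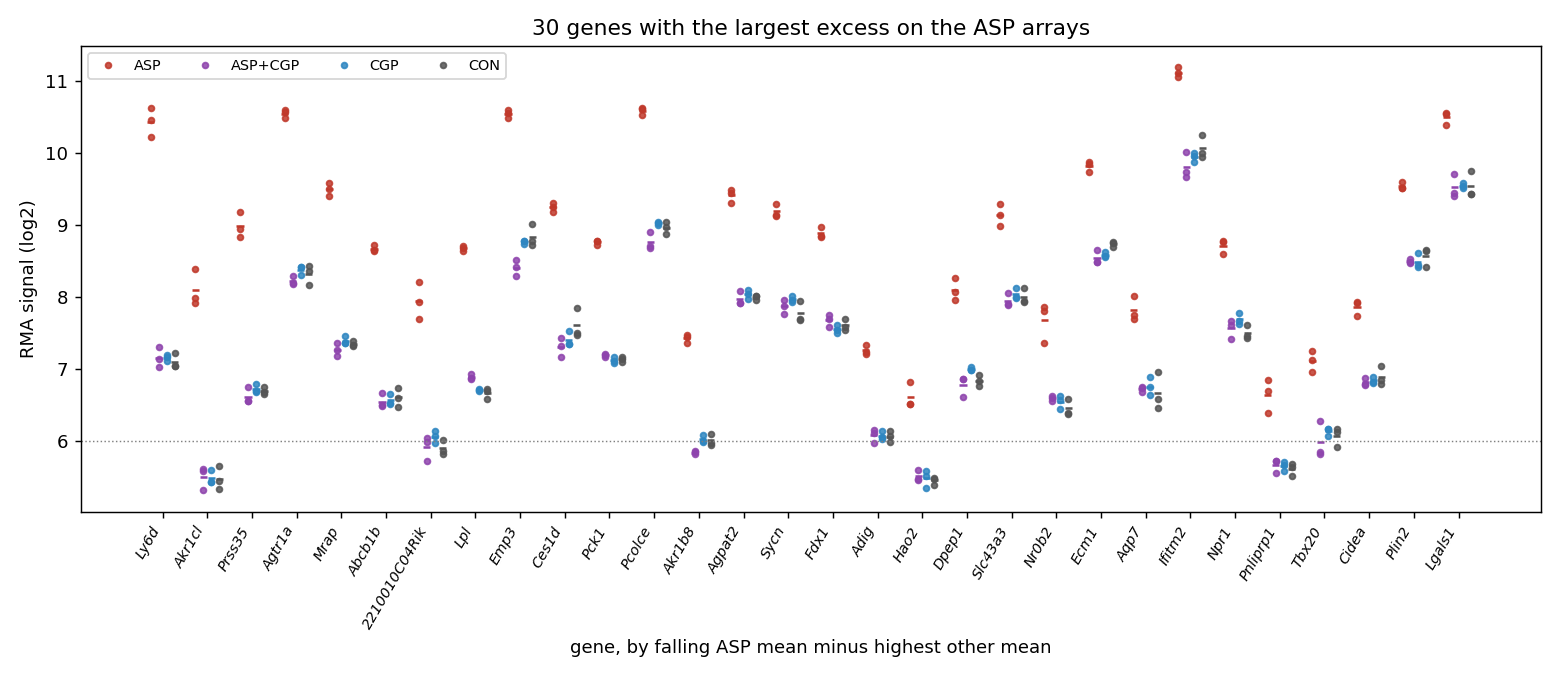
RMA signal (log2, vertical axis) of the 30 genes with the largest excess (horizontal axis), with a point per array, a bar at the pool mean, and pools from left to right ASP, ASP+CGP, CGP and CON. Each ASP point lies above the 9 others of its gene, as the selection required, and the dotted line marks a signal of 6.

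**Figure D2:**
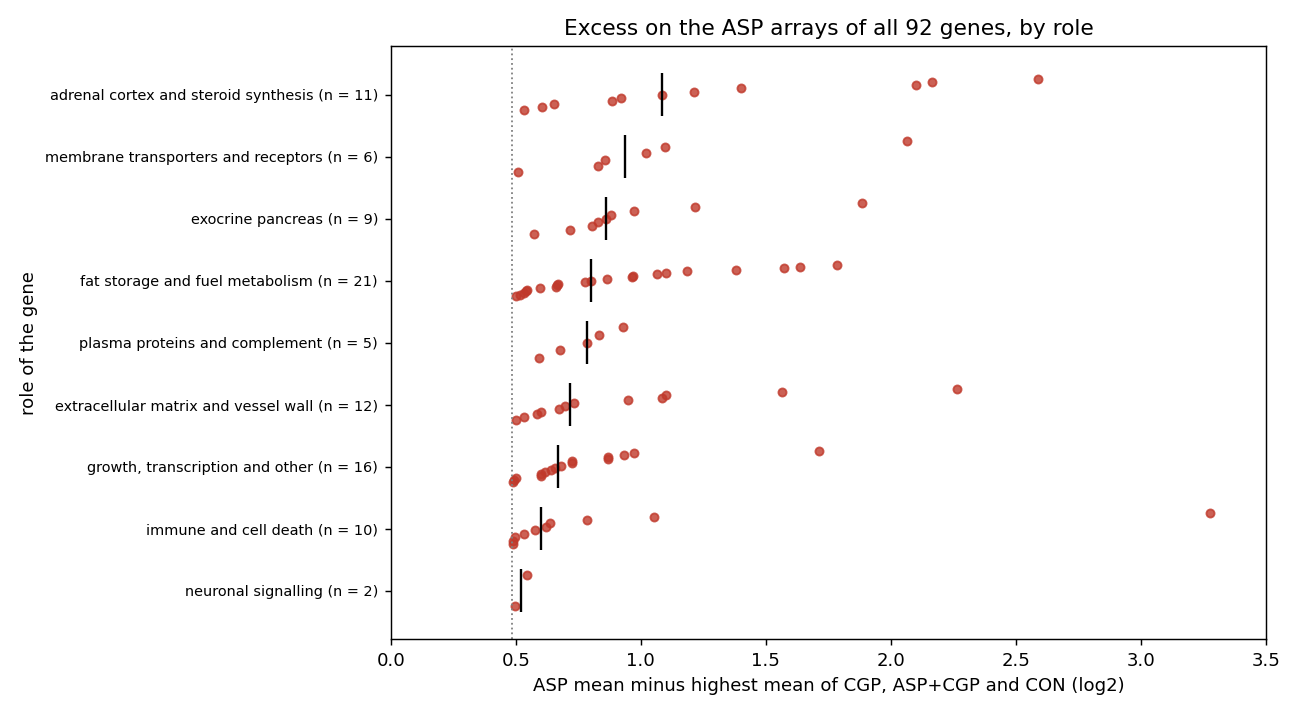
ASP mean minus the highest mean of the other pools (log2, horizontal axis) for all 92 genes, grouped by hand-assigned role (vertical axis), with a vertical bar at the median of each group and a dotted line at the threshold of the selection. Medians run from 0.52 for the 2 neuronal genes to 1.09 for the 11 genes of adrenal cortex and steroid synthesis, and the largest value, 3.28, is that of Ly6d.

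Under adrenal cortex and steroid synthesis, 11 genes were grouped by hand after their values had been seen, with a median excess of 1.09. The adrenal cortex list itself held 2 of them, Mrap and Fdx1. Agtr1a, the type 1 receptor for angiotensin II, had signals of 10.57, 10.59 and 10.48 on the ASP arrays, against 8.19, 8.18 and 8.29 for ASP+CGP, 8.31, 8.41 and 8.41 for CGP and 8.36, 8.16 and 8.42 for CON. Mrap, the accessory protein that carries the receptor for adrenocorticotropic hormone to the cell surface, had 9.497, 9.58 and 9.40 on the ASP arrays, against 7.18, 7.26 and 7.36 for ASP+CGP, 7.46, 7.36 and 7.36 for CGP and 7.33, 7.32 and 7.39 for CON. In both genes the 3 ASP arrays lay close together and far above the rest, with excesses of 2.16 and 2.10. Mrap2, the related accessory protein that is expressed in the brain, had a mean of 9.12 in ASP, against 9.15 in ASP+CGP, 9.16 in CGP and 9.27 in CON. Fdx1, the ferredoxin that passes electrons to mitochondrial steroid hydroxylases, had 8.85, 8.98 and 8.83 on the ASP arrays, against 7.75, 7.58 and 7.69 for ASP+CGP, 7.60, 7.50 and 7.54 for CGP and 7.55, 7.58 and 7.69 for CON.

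The aldo-keto reductase genes Akr1cl and Akr1b8 had excesses of 2.59 (6.01-fold) and 1.402. Akr1cl signals were 8.38, 7.91 and 7.98 on the ASP arrays, against 5.59, 5.31 and 5.61 for ASP+CGP, 5.59, 5.42 and 5.43 for CGP and 5.44, 5.66 and 5.33 for CON. All of its other 9 arrays lay under 6, so that its 3 lower pools were near background and have no order. Akr1b10, a close relative of Akr1b8, had an excess of only 0.26. Nr0b2, an orphan nuclear receptor that represses other nuclear receptors, had 7.86, 7.80 and 7.36 on the ASP arrays, against 6.55, 6.62 and 6.60 for ASP+CGP, 6.45, 6.62 and 6.56 for CGP and 6.37, 6.39 and 6.59 for CON. The ASP value was lowest on the third array. The remaining genes of this group were Kcnk3, a background potassium channel (10.95 to 11.09 on the ASP arrays, against 9.98 to 10.15 on the other 9), the transcription factor gene Gata6 (0.88), Greb1 (0.65), and Alas1 and Dhcr7, enzymes of heme and cholesterol synthesis (0.61 and 0.53). Gata4, the relative of Gata6, had an excess of -0.10.

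Nuclear receptors of the NR5A family, with steroidogenic factor 1 as the best known member in the adrenal cortex, bind CAAGGTCA and CAAGGCCA. These letters were searched on both strands of RefSeq promoter windows (GRCm38.p6) that run from 250 bases before to 50 bases after a transcription start. Windows were found for 66 of the 92 genes, 78 in all. The letters stood in 5 (6.41%) of the 78 windows, those of Nr0b2, Dpep1, Lipe, Dhcr7 and Pon3, and in 3.92% of all 32851 windows. A match is only a run of letters and not a site of binding. The windows of Nr0b2 (chr4:133553126-133553425, plus strand), shown because it is itself a nuclear receptor gene, and of Dpep1 (chr8:123185985-123186284, plus strand), shown because of its large excess, are printed with the matching letters in capitals, which begin 201 and 244 bases before the start.
Nr0b2: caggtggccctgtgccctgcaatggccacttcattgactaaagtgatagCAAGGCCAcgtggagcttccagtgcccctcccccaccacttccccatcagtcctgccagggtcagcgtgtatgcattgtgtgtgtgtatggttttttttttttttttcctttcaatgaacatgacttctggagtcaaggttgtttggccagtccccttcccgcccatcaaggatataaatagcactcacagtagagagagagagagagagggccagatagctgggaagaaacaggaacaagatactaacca
Dpep1: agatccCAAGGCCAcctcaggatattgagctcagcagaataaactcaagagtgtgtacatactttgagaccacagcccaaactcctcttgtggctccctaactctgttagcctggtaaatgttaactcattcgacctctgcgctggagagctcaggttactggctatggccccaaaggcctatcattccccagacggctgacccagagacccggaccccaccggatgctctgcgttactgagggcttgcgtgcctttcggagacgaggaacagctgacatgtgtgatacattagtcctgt

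To the exocrine pancreas, 9 genes of the set were assigned by hand after their values had been seen, with a median excess of 0.86. Of the 31 measured genes of the exocrine pancreas list, 15 did not meet the selection. 2210010C04Rik, which lies in the trypsin gene cluster with 1 gene between it and Try5, had 7.69, 7.93 and 8.20 on the ASP arrays, against 5.71, 5.99 and 6.04 for ASP+CGP, 6.14, 5.97 and 6.07 for CGP and 5.86, 6.01 and 5.82 for CON. The ASP arrays of this gene spread more widely than those of Agtr1a, from 7.69 to 8.20, and the other pools lay near 6. Sycn, a protein of zymogen granules, had 9.13, 9.29 and 9.13 on the ASP arrays, against 7.96, 7.76 and 7.88 for ASP+CGP, 7.96, 7.93 and 8.01 for CGP and 7.70, 7.68 and 7.94 for CON. Pnliprp1, a relative of pancreatic lipase, had 6.38, 6.70 and 6.85 on the ASP arrays, against 5.72, 5.56 and 5.73 for ASP+CGP, 5.66, 5.59 and 5.71 for CGP and 5.63, 5.68 and 5.51 for CON, with all of its other 9 arrays under 6. Trypsinogen genes are near-identical and can share probes, so that their values may not be independent.

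The other members of the group had smaller excesses. They were 0.88 for Try5 and 0.72 for Prss2, which encode trypsinogens, 0.86 for Ctrl, a chymotrypsin-like protease, 0.83 for Reg1, a secreted lectin-like protein, 0.80 for Rnase1, the pancreatic ribonuclease, and 0.57 for Dmbt1, a mucosal glycoprotein. Try10, another trypsinogen, had a mean excess of 0.49 but stayed outside, because its lowest ASP array (6.02) was below its highest other array (6.11).

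TATAAA, the core of the TATA box, was present on either strand in 13 (16.7%) of the 78 windows and in 13.6% of all windows. It began 30 bases before the start in 2210010C04Rik and Reg1 and 16 bases before it in Prss2. The windows of 2210010C04Rik (chr6:41035460-41035759, minus strand) and Prss2 (chr6:41521526-41521825, plus strand) are shown as examples from the trypsin genes, with TATAAA in capitals.
2210010C04Rik: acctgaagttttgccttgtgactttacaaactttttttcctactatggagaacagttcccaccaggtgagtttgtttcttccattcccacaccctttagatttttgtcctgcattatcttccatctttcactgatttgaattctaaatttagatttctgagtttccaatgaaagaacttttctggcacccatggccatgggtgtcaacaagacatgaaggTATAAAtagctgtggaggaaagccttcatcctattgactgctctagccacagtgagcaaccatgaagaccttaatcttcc
Prss2: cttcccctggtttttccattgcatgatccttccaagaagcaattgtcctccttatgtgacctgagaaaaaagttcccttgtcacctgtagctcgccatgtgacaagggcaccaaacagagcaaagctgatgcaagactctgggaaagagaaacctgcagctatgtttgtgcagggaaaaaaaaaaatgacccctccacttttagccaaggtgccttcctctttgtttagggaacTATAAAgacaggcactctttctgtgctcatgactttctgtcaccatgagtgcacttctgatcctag

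Of the other strings searched, TTGCNNAA (bound by C/EBP factors) stood in 8.97% of the windows of the set and 10.8% of all, CAGCTG (an E-box) in 19.2% and 16.3%, TGACGTCA (the cAMP response element) in 0% and 1.79%, and TCAAAGGTC (a part of the element of PPAR and RXR) in 0% and 0.295%.

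Fat storage and fuel genes made up the largest group, 21 genes with a median excess of 0.80. Lpl, the lipoprotein lipase that frees fatty acids from circulating particles, had 8.63, 8.68 and 8.70 on the ASP arrays, against 6.86, 6.88 and 6.93 for ASP+CGP, 6.71, 6.72 and 6.70 for CGP and 6.70, 6.72 and 6.57 for CON. Pck1, which encodes the enzyme of glycerol and glucose formation from oxaloacetate, had 8.78, 8.72 and 8.78 on the ASP arrays, against 7.21, 7.19 and 7.16 for ASP+CGP, 7.11, 7.09 and 7.16 for CGP and 7.10, 7.13 and 7.16 for CON. Its 9 other arrays stayed between 7.09 and 7.21. Ces1d, a lipase of the carboxylesterase family, had 9.25, 9.18 and 9.30 on the ASP arrays, against 7.16, 7.31 and 7.42 for ASP+CGP, 7.52, 7.35 and 7.34 for CGP and 7.47, 7.50 and 7.84 for CON. Among the other 9, the third CON array was the highest. The relatives Ces1f and Ces1g had excesses of 0.33 and 0.05.

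Of the triacylglycerol list, 10 of 41 measured genes were members. Agpat2, an acyltransferase of triacylglycerol synthesis, had an excess of 1.38, and Aqp7, the glycerol channel of adipocytes, one of 1.07. The droplet proteins Cidea and Plin2 had 0.97 and 0.96, against 0.07 for Plin3 and 0.15 for Plin4. The lipases of stored fat were raised less. Lipe, hormone-sensitive lipase, had 9.61 to 9.76 on the ASP arrays, against 8.89 to 9.10 on the other 9 arrays, and Pnpla2, the lipase of the first step, 10.51 to 10.63 on the ASP arrays, against 9.80 to 10.04 on the other 9 arrays. Adig (adipogenin) had an excess of 1.18, Trarg1, a partner of the insulin-regulated glucose transporter, 0.87, and Aoc3, a surface amine oxidase of adipocytes, 0.66. Oxidative and redox enzymes completed the group, among them Hao2, a hydroxyacid oxidase (1.10), Me1, which supplies reducing power for fatty acid synthesis (0.78), Car5b (0.55) and Acaa2, a thiolase of mitochondrial fatty acid oxidation (0.50). Txnip, which binds thioredoxin and responds to glucose, had 0.52. The amino acid transporter gene Slc36a2 (0.80), the ligase-like Acsm3 (0.67), Cobll1 (0.67) and the hydrolase Abhd2 (0.54) made up the 21.

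Ly6d, a small surface protein anchored by a lipid tail, had the largest excess of all. Its signals were 10.63, 10.45 and 10.22 on the ASP arrays, against 7.03, 7.13 and 7.30 for ASP+CGP, 7.17, 7.10 and 7.20 for CGP and 7.03, 7.04 and 7.22 for CON. The ASP mean lay 9.69-fold above the highest other pool, which was CGP. The other 9 genes grouped under immunity and cell death had excesses between 0.49 and 1.05. The largest of them was that of Ifitm2, an interferon-induced membrane protein, with 11.05 to 11.19 on the ASP arrays, against 9.66 to 10.24 on the other 9. Its relatives Ifitm3 and Ifitm1 had excesses of 0.39 and 0.07. Lyz2, the lysozyme of macrophages, had 0.58, while the whole macrophage and myeloid list had 1 member among 28 measured genes. Receptors were represented by Il10rb, a subunit for interleukin 10 (0.62), Cxcr4, which binds the chemokine CXCL12 (0.53), and Tnfrsf12a, which binds the cytokine TWEAK (0.50). Ifi27l2a, an interferon-induced gene, had 0.79, and its relative Ifi27 0.45. Gpnmb, a glycoprotein of macrophages and pigment cells, had 0.64.

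Genes of the extracellular matrix and the vessel wall gave 12 members with a median of 0.72. Prss35, a secreted protein of the serine protease family, had 8.83, 9.18 and 8.95 on the ASP arrays, against 6.56, 6.74 and 6.55 for ASP+CGP, 6.69, 6.79 and 6.67 for CGP and 6.74, 6.68 and 6.65 for CON. Pcolce, which speeds the processing of procollagen, had 10.53, 10.62 and 10.61 on the ASP arrays, against 8.70, 8.89 and 8.68 for ASP+CGP, 9.001, 9.03 and 9.04 for CGP and 8.87, 8.97 and 9.03 for CON. Dpep1, a membrane dipeptidase, had an excess of 1.10 (7.95 to 8.26 on the ASP arrays, against 6.61 to 7.02 on the other 9). Lgals1, galectin-1, had one of 0.95 (10.39 to 10.55 on the ASP arrays, against 9.40 to 9.74 on the other 9). The matrix proteins Ecm1, Bgn (biglycan) and Hspg2 (perlecan) had excesses of 1.08, 0.70 and 0.53, and the endothelial sialomucin Emcn had 0.50. Igfbp7, Tinagl1, Antxr2 and the collagen-modifying hydroxylase Plod2 had 0.73, 0.60, 0.58 and 0.67. The endothelium list had 1 member and 1 symbol set aside of 37 measured genes, the fibroblast and meninges list 3 and 1 of 49, and the smooth muscle and pericyte list none of 20. With 92 of 17186 genes in the set, none of 20 is near the background.

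Transporters and receptors of the cell surface were led by Abcb1b, a P-glycoprotein that pumps drugs and steroids out of cells. It had 8.72, 8.65 and 8.63 on the ASP arrays, against 6.49, 6.66 and 6.48 for ASP+CGP, 6.65, 6.52 and 6.53 for CGP and 6.74, 6.60 and 6.47 for CON, an excess of 2.06. Abcb1a, the form of brain capillaries, had means of 8.73 in ASP, 8.76 in ASP+CGP, 8.78 in CGP and 8.65 in CON, so that these related forms did not share the pattern. Npr1, the receptor for atrial natriuretic peptide, had an excess of 1.02, against -0.03 for Npr2 and -0.01 for Npr3. Slc1a5, a transporter of neutral amino acids, had 0.83, against -0.08 for Slc1a4. Slc43a3, which carries purine bases, had 1.10 and the tachykinin receptor gene Tacr2 0.86. Slc44a3, of the choline transporter-like family, had the smallest excess of the group, 0.51. Of 17 relatives of members that were looked up, 6 had all ASP arrays above the other 9 without reaching the threshold, namely Akr1b10, Ifitm3, Ces1f, Plin4, Ifi27 and Lyz1, the relative of Lyz2 (0.20). The other 11 did not, Abcb1a, Npr2, Npr3 and Slc1a4 among them. All relatives were chosen after values had been seen.

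Of plasma proteins, C7 of the complement cascade had an excess of 0.93, Alb (albumin) 0.83, Hp (haptoglobin) 0.79, Lrg1 0.68 and Pon3, a lactonase, 0.59. Alb and Hp were the only members among 17 measured genes of the liver list. Emp3, a membrane protein of the PMP22 family, led the 16 genes of growth, transcription and other roles with 10.49, 10.59 and 10.56 on the ASP arrays, against 8.29, 8.42 and 8.51 for ASP+CGP, 8.78, 8.74 and 8.77 for CGP and 8.71, 8.78 and 9.01 for CON. Its ASP+CGP arrays formed the lowest pool. This group also held Tbx20, a transcription factor of heart development (0.97), Dab2, an endocytic adaptor (0.87), Inmt, a methyltransferase of indoleamines (0.87), and the cell cycle gene Ccnd2 (0.66). The others were Tmem45b, Steap1, Niban1, S100a5, the tubulin gene Tubb6, Ecrg4, the RNA-binding Rbm47, Tcim, Osgin1, Klhdc8a and S100a11, with excesses from 0.49 (S100a11) to 0.93 (Tmem45b).

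Npy and Slc6a4 were the only members with a primary role in neuronal signalling. Npy, the appetite-stimulating neuropeptide of the arcuate nucleus, is also made in the adrenal medulla, whose list had 1 member and 4 symbols set aside of 24 measured genes. It had 12.04, 12.01 and 11.98 on the ASP arrays, against 10.94, 10.94 and 11.26 for ASP+CGP, 11.15, 11.19 and 11.16 for CGP and 11.36, 11.39 and 11.65 for CON. In falling order of the mean the pools were ASP, CON, CGP and ASP+CGP, although the third ASP+CGP array lay above the CGP arrays. Slc6a4, the serotonin transporter of raphe neurons and of some cells outside the brain, had 7.44, 7.28 and 7.47 on the ASP arrays, against 6.76, 6.76 and 6.92 for ASP+CGP, 6.84, 6.78 and 6.72 for CGP and 6.93, 6.91 and 6.85 for CON.

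At the threshold, the members just inside were Casp8 (0.49), Ctsh (0.49) and S100a11 (0.49), and the genes just outside were Clic1 (0.48), Vegfd (0.48) and Trim25 (0.48). Another probe set existed for 3 of the 92 genes, 4 in all, and had not entered the selection. All 4 had each ASP array above the other 9, with excesses of 1.004 and 1.04 for Ifitm2, 0.77 for Me1 and 0.42 for S100a11. They measured the same RNA pools and are no independent support. Some genes lay side by side in the RefSeq gene order. With no gene between them stood Me1 and Prss35, Cidea and Tubb6, Lpl and the set-aside Slc18a1, and Hao2 and the set-aside Hsd3b1.

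Where the 92 genes stood in the other pools was tested by comparisons among ASP+CGP, CGP and CON, which the ASP mean does not enter. The ASP arrays still form part of the common spread behind each SE and p, and a fit of the other 9 arrays alone is given beside the calls. The comparisons share arrays with each other. The rule also used the values of the tested pools, through the highest other mean and through each of the other 9 arrays. A gene raised in ASP+CGP, CGP or CON to near its ASP level could not enter. The counts of higher genes, the counts of lower genes and the intervals below are therefore all partly fixed by the selection. At a limma adjusted p under 0.05 and a fold change over 1.4, 0 of the 92 genes were higher and 0 lower in ASP+CGP vs CON, in ASP+CGP vs CGP and in CGP vs CON. Over all genes, the percentages higher and lower were 0.0407% and 0.14% in ASP+CGP vs CON, 0.0291% and 0.134% in ASP+CGP vs CGP, and 0.0931% and 0.0175% in CGP vs CON, so that a count of 0 among 92 is near the background. An unadjusted p under 0.05 was found for 25%, 20.7% and 16.3% of the 92 genes (23, 19 and 15) in the same order of comparisons, against 15.4%, 14.2% and 11.6% of all genes. Akr1cl, Hao2, Pnliprp1 and Acsm3 had all of the 9 arrays under 6 and entered only through the ASP arrays, so that their intervals say little. Of the other 88 genes, the 95% interval of the fold change lay wholly inside 1.4-fold in either direction for 85, 85 and 88.

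At an adjusted p under 0.05 with no limit on the fold change, 1 gene was higher and 4 were lower in ASP+CGP vs CON, against 0.826% and 0.919% of all genes. In ASP+CGP vs CGP, 0 were higher and 5 lower, against 0.32% and 0.658% of all genes. In CGP vs CON there were 0 and 0, against 0.489% and 0.14% of all genes. The 4 and the 5 lower genes were 4.35% and 5.43% of the set, shares that the selection had also shaped. The median log2 fold change of the 92 genes was -0.03 in ASP+CGP vs CON, -0.06 in ASP+CGP vs CGP and 0.04 in CGP vs CON, while over all genes it was -0.004, -0.021 and 0.015. ASP+CGP was the lowest pool for 53.3% of the set and for 40.4% of all genes. CGP was the highest pool after ASP for 49 of the 92 genes, against 42.6% of all genes with CGP highest among the other pools. It was the lowest for 10.9% of the set and 23.9% of all genes.

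**Figure D3:**
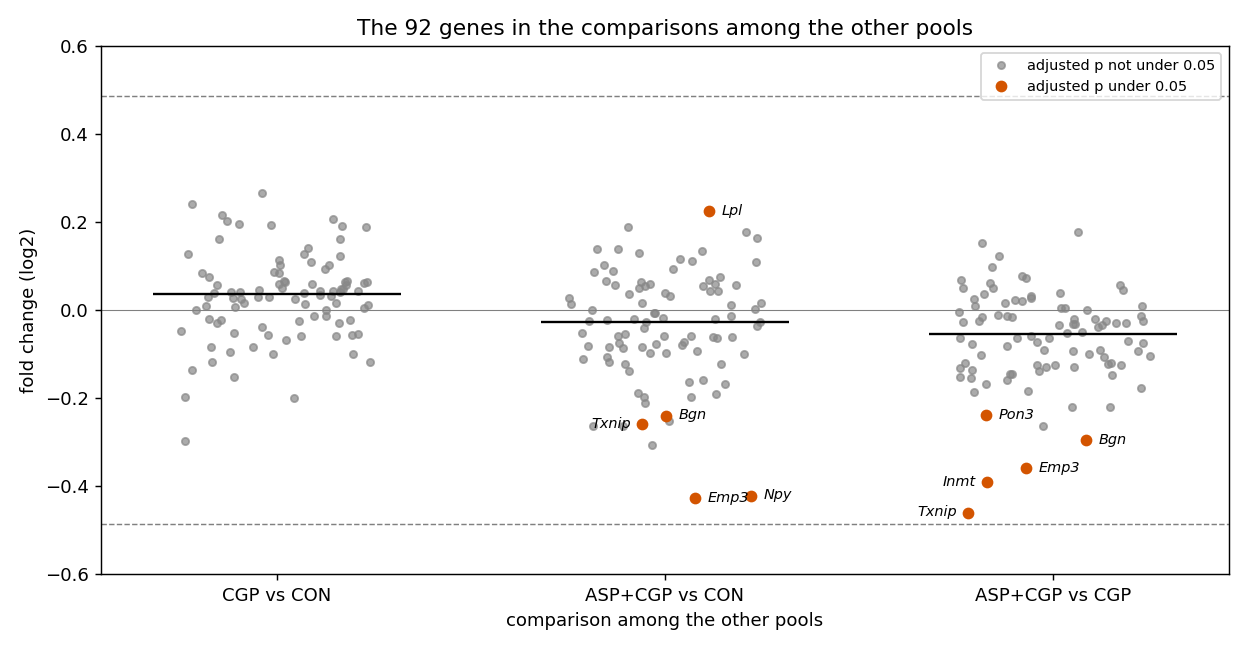
Log2 fold change (vertical axis) of each of the 92 genes in CGP vs CON, ASP+CGP vs CON and ASP+CGP vs CGP (horizontal axis), with a point per gene, a bar at the median and dashed lines at 1.4-fold. Orange points have a limma adjusted p under 0.05, with 0, 5 and 5 such genes, and no point lies beyond 1.4-fold.

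The genes that were lower in the ASP+CGP pool were Txnip, Emp3 and Bgn in both comparisons, Npy against CON, and Inmt and Pon3 against CGP. Both comparisons use the same ASP+CGP arrays. Inmt, Pon3 and Txnip were named after their values had been seen. Txnip had signals of 10.50, 10.46 and 10.41 on the ASP arrays, against 9.55, 9.48 and 9.41 for ASP+CGP, 9.89, 9.97 and 9.95 for CGP and 9.78, 9.71 and 9.73 for CON. Its log2 fold change in ASP+CGP was -0.26 ± 0.05 (SE, limma adjusted p = 0.0114) against CON and -0.46 ± 0.05 (SE, limma adjusted p = 0.000177) against CGP. In CGP vs CON the value of Txnip was 0.20 ± 0.05 (SE, limma adjusted p = 0.0842). For Emp3, whose signals are given above, the values were -0.43 ± 0.07 (SE, limma adjusted p = 0.00706) against CON and -0.36 ± 0.07 (SE, limma adjusted p = 0.0308) against CGP.

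Bgn, a proteoglycan of connective tissue, had 10.20, 10.26 and 10.24 on the ASP arrays, against 9.22, 9.35 and 9.15 for ASP+CGP, 9.56, 9.54 and 9.495 for CGP and 9.42, 9.51 and 9.500 for CON. The fold change of Bgn was -0.24 ± 0.05 (SE, limma adjusted p = 0.0306) against CON and -0.30 ± 0.05 (SE, limma adjusted p = 0.0124) against CGP. Npy was lower by 0.42 ± 0.09 (SE, limma adjusted p = 0.0232) against CON. Inmt had 8.09, 8.38 and 8.40 on the ASP arrays, against 7.06, 7.06 and 6.97 for ASP+CGP, 7.32, 7.50 and 7.45 for CGP and 7.33, 7.22 and 7.33 for CON, and its fold change was -0.39 ± 0.08 (SE, limma adjusted p = 0.0268) against CGP. Pon3 had 7.55, 7.68 and 7.54 on the ASP arrays, against 6.72, 6.78 and 6.78 for ASP+CGP, 7.05, 7.04 and 6.90 for CGP and 6.91, 6.96 and 6.91 for CON, with -0.24 ± 0.05 (SE, limma adjusted p = 0.0447) against CGP. Lpl alone was higher, by 0.22 ± 0.05 (SE, limma adjusted p = 0.0232) in ASP+CGP vs CON, with 6.86 to 6.93 on the ASP+CGP arrays and 6.57 to 6.72 on those of CON.

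**Figure D4:**
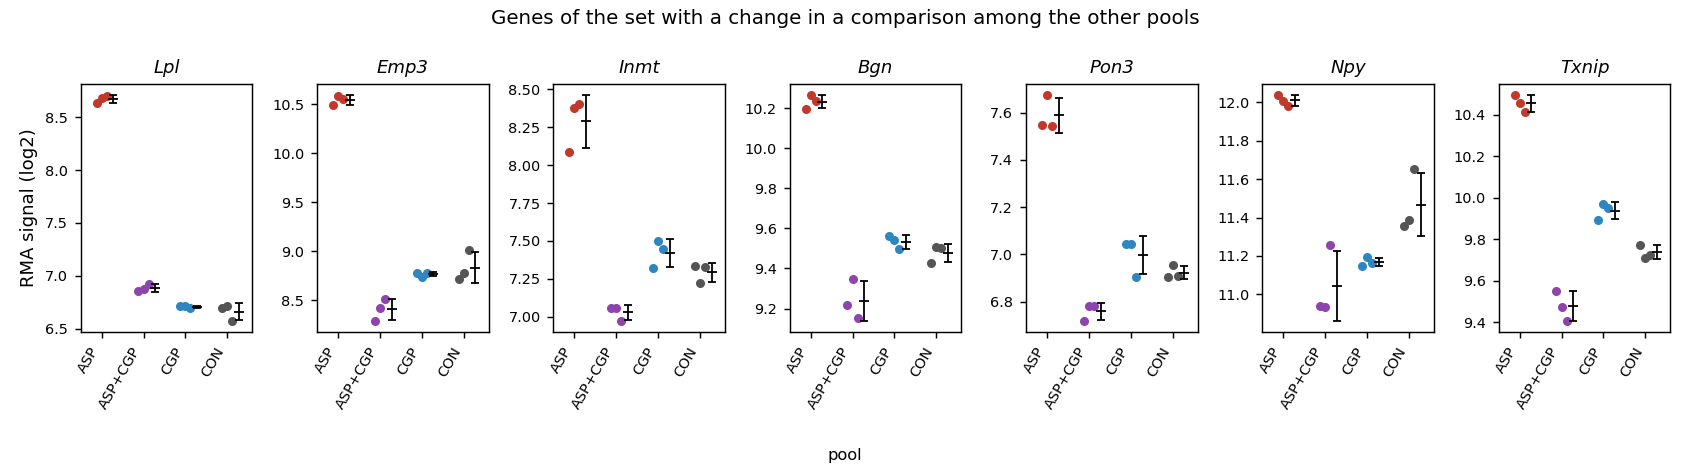
RMA signal (log2, vertical axis, a scale per gene) of the 7 genes with an adjusted p under 0.05 in a comparison among the other pools, by pool (horizontal axis, from left to right ASP, ASP+CGP, CGP and CON), with a point per array and the mean ± SD beside them. ASP+CGP is the lowest pool for all but Lpl, where CON is the lowest.

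Of these calls, Txnip in ASP+CGP vs CGP and Emp3 in ASP+CGP vs CON stayed under an adjusted p of 0.05 in every fit that left out 1 array. In ASP+CGP vs CON, Txnip lost it without the first CON array (adjusted p = 0.0613), Npy without the first or the second ASP+CGP array (0.101 and 0.0916), Lpl without either of these or the first CON array (0.0540 to 0.0608), and Bgn without any 1 of 8 arrays, those other than the first and the second ASP, the third CGP and the second ASP+CGP array (0.0506 to 0.118). In ASP+CGP vs CGP, Bgn lost it without any 1 of 3 arrays, the first and the second CGP and the first ASP+CGP array (0.0543 to 0.0817), Inmt without any 1 of 5, an ASP+CGP array or the second or the third CGP array (0.0627 to 0.129), and Emp3 without 6, the third ASP, any CGP and the first or the second ASP+CGP array (0.0519 to 0.133). Pon3 lost it without any 1 of 9 arrays, those other than the second ASP, the third CGP and the third CON array (0.0576 to 0.192). With the array number as a block in a fit of ASP+CGP and CON alone, 8 genes instead of 4 were lower in ASP+CGP vs CON, the same 4 with Ces1d, Ecm1, Ifitm2 and Pnpla2. These are 8.7% of the set, against 2.45% of all genes in that fit and 0.919% without the block, so that calls became more frequent over all genes too. In the fit of the 9 arrays without ASP, the calls of Lpl, Npy and Bgn against CON were lost (adjusted p = 0.0607, 0.0635 and 0.0744), as were those of Emp3 and Pon3 against CGP (0.0823 and 0.0763). Txnip in both comparisons, Emp3 against CON, and Inmt and Bgn against CGP stayed under 0.05 (0.00135 to 0.0415). Some marker lists of other cells were also lower in ASP+CGP. For the fibroblast and meninges list, which holds Bgn, the log2 of the mean unlogged signal was 8.81 to 8.87 in ASP+CGP, against 9.03 to 9.04 in CGP and 9.04 to 9.08 in CON. For that list 3 of 49 genes were lower in ASP+CGP vs CON and 1 in ASP+CGP vs CGP at an adjusted p under 0.05 and a fold change over 1.4, and for the pituitary list 6 and 8 of 17 were. Over all genes, 0.14% and 0.134% were. Of the same 17 pituitary genes, 7 were higher in CGP vs CON at these limits, against 0.0931% of all genes. Other lists were not lower, such as that of the liver, with 9.25 to 9.34 in ASP+CGP, against 9.23 to 9.25 in CGP and 8.99 to 9.08 in CON. The part of the lower lists in the values of the 6 lower genes was not tested.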

How the data were processed

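RNA of the hypothalamus, pooled per group, was measured on 12 arrays in 4 groups taken from the sample labels. The deposited values are log2 signals, which the authors made with Partek Genomics Suite by RMA (background correction, quantile normalization and median polish). Signals near background understate fold changes. The authors' genome build is not given in the sources used here. Probe sets were named from the platform annotation. Of 29149, 19019 had 1 symbol, 1197 several and 8933 none. Those with 1 symbol were retained if 3 or more arrays reached a signal of 6 (18810), and each gene was represented by its probe set of highest mean (17186 genes).

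Comparisons among ASP+CGP, CGP and CON were fitted by lmFit and eBayes of limma 3.58.1 under R 4.3.3 (all 12 arrays, a mean per pool, a common spread, 8 residual degrees of freedom) with Benjamini-Hochberg adjustment over all genes. On simulated data for CGP vs CON with 17186 genes, the fit recovered 93% of 1.5-fold and 100% of 2-fold changes and made 0 false calls. Smaller changes and the comparisons with ASP+CGP were not simulated. These rates therefore do not cover the calls at an adjusted p alone. The number of arrays limits the precision. Fold changes are given ± SE. Deviations from pool means correlated at 0.170, 0.256 and 0.541 for same-numbered arrays of ASP+CGP and CON. Same-numbered arrays of CGP with either of these pools gave -0.06 to 0.07. The highest value is that of the third arrays, which lay farthest from their pool means, and no values are given for different-numbered arrays. That the numbers pair ASP+CGP and CON is therefore not established, and the labels name no shared batch.

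The genes and lists were chosen with earlier results of these data known. The rule for named genes took the 30 largest excesses, up to 4 members of each list, genes called in the tested comparisons, genes at the threshold and genes with several probe sets. Further members were named to complete their role groups, after their values had been seen. Role groups were assigned by hand after the set was known. Probe set rules, filters, normalizations, thresholds, tests, a replicate block and leaving out each array were tried as alternatives. Promoter windows are from RefSeq (GRCm38.p6), and Python 3.11.15 drew the figures.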

Additional observations from a re-analysis of the deposited data

Results flagged for a closer look

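Probe sets without a single gene symbol did not enter the set. Of 1168 probe sets with several symbols, 9 (0.771%) met the same rule on the ASP arrays, with a largest excess of 3.77. Of 8542 with no symbol, 22 (0.258%) met it, with a largest excess of 4.87, against 0.809% of the named genes.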

How the results depend on the processing

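The set held 92 genes. It held 25 at an excess over 1, 232 at log2 of 1.2, 689 with no threshold on the excess, and 88 to 97 when 1 array was left out. Of 852 excesses of the 45 named genes under alternatives, none changed sign and 1 moved by more than the spread, that of Nr0b2, which was 1.24 without the third ASP array.

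With no fold threshold, 1 gene was higher and 4 lower in ASP+CGP vs CON and 5 lower in ASP+CGP vs CGP. With a fold over 1.2, 2 and 4 were lower. Leaving out 1 array gave 0 to 1 lower in both at 1.4-fold (Npy, Emp3 or Txnip). At an adjusted p alone, leaving out 1 array gave 0 to 1 higher and 2 to 5 lower in ASP+CGP vs CON, 0 to 1 higher and 1 to 7 lower in ASP+CGP vs CGP, and 0 to 1 higher in CGP vs CON. In the fit of 9 arrays without ASP, 0 were higher and 2 lower in ASP+CGP vs CON and 3 lower in ASP+CGP vs CGP. Without variance moderation, 2 and 1 were lower. After further quantile normalization 1 was higher in CGP vs CON (Txnip). The cause of these shifts was not tested.

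Chosen after seeing the data, a fit without the third ASP+CGP and CON arrays gave 1 lower gene in CGP vs CON (Npy), and a replicate block in a fit of ASP+CGP and CON alone gave 8 lower. The replicate block over all pools changed no count by over 1.5 times. Genes near background have no order among low pools, and 1 pool per group leaves the spread between mice unmeasured.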
